A study of Mus musculus with 12 samples.

Results

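The genes described here are 35 mouse genes of ribosome biogenesis and cell growth, of 51734 gene symbols in the deposited files. They were taken from a list of genes known for making ribosomes or for feeding growth, matched by symbol, and all 35 were found under 1 gene identifier each. The rule that picks them uses no measured value, but the list was chosen with earlier results of these data known. As background, the transcription factor MYC switches on genes for every step from ribosomal RNA synthesis in the nucleolus to the export of finished subunits, together with enzymes that make polyamines and nucleotides. RNA polymerase I makes a long precursor RNA, small nucleolar ribonucleoprotein particles (snoRNPs) direct its chemical modification, and assembly factors then fold and trim it into the small (40S) and large (60S) ribosomal subunits. In T cell leukemias MYC is known as a target of Notch signaling.

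RNA with poly(A) tails was read from 12 thymus libraries of strain F5 mice. Of these, 9 were T cell acute lymphoblastic leukemias from mice with tetracycline-inducible expression of the interleukin-7 receptor alpha chain, titled as doxycycline-induced, and 3 came from the thymus of healthy controls. No age is labelled, nor the promoter of the inducible allele, nor whether each library came from a separate animal, and p-values below therefore speak of the scatter from library to library, technical or not. A tumor library held between 11617724 and 34769946 estimated counts, and a control library between 8133152 and 12019924.

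The composition of the libraries differed, and this touches every comparison below. Mitochondrial genes held between 31.6% and 69.3% of the counts in tumors 1 to 6, between 2.54% and 11.1% in tumors 7 to 9 and between 0.0948% and 6.73% in the controls. The level of genes for olfactory and vomeronasal receptors, whose known place is the nose, was taken as a background. Their median, in CPM (a gene's counts relative to the library total) per kilobase, was between 0 and 0.134 in tumors 1 to 6, between 0.642 and 1.76 in tumors 7 to 9 and between 1.55 and 2.00 in the controls. The labels do not set tumors 7 to 9 apart from tumors 1 to 6. They are treated as separate sets here because of this composition, and all 9 tumors are compared with the controls for the lists as wholes. The 8 T lineage markers, all above 0 in every library, had a summed level between 1892 and 2608 CPM in tumors 1 to 6, between 56.9 and 135 CPM in tumors 7 to 9 and between 38.5 and 96.7 CPM in the controls. Markers of other cell types also differed. The 3 endothelial markers summed to between 175 and 1149.7 CPM in tumors 1 to 6, between 71.3 and 137 CPM in tumors 7 to 9 and between 21.97 and 66.9 CPM in the controls. The 5 macrophage markers summed to between 15.8 and 155 CPM in tumors 1 to 6, between 7.96 and 8.53 CPM in tumors 7 to 9 and between 7.23 and 9.07 CPM in the controls. The 4 fibroblast markers summed to between 15.5 and 199.7 CPM in tumors 1 to 6, between 40.2 and 48.8 CPM in tumors 7 to 9 and between 29.0 and 34.3 CPM in the controls. The 5 thymic epithelial markers were lower in tumors 1 to 6, at 3.05 to 18.2 CPM, than in tumors 7 to 9, at 24.6 to 25.6 CPM, or in the controls, at 19.98 to 25.5 CPM. Every macrophage marker had counts in every library. The part of these cells in the results below was not tested.

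Promoters were examined first, because a MYC dimer binds the E-box CACGTG. A RefSeq window of 250 bases before to 50 bases after the start (GRCm38.p6) was matched by symbol for 29 of the 35 genes, and the motif reads the same on both strands. CACGTG stood in the windows of 6 of these genes, namely Hspd1, Nop2, Pes1, Wdr43, Pus7 and Utp20, which is 20.7%, against 8.09% of the 27025 genes with a window. The related motif CACGCG, searched on both strands as CACGCG or CGCGTG, stood in 9, namely Bysl, Ddx21, Hspd1, Hspe1, Nip7, Nolc1, Nop16, Odc1 and Pes1, which is 31.0%, against 10.5% of all genes. A match is a description of the letters in the window and not a measured binding site. The 3 stretches below are shown because they hold the canonical E-box closest before the start (Nop2), farthest before it (Hspd1) and closest after it (Pes1), with CACGTG in capitals. The Nop2 stretch is chr6:125131763-125131872 on the plus strand with the E-box 60 bases before the start, the Hspd1 stretch is chr1:55088274-55088383 on the minus strand with the E-box 80 bases before the start, and the Pes1 stretch is chr11:3963885-3963984 on the plus strand with the E-box at base 3 after the start.
Nop2: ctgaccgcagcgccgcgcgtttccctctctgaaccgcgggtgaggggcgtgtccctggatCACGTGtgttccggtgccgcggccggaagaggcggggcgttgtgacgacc
Hspd1: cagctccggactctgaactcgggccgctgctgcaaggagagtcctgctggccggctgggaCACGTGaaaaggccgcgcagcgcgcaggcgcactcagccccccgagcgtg
Pes1: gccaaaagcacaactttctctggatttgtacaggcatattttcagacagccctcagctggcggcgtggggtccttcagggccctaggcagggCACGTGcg

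Myc itself was high in tumors 1 to 6. Myc (ENSMUSG00000022346, GRCm38 chromosome 15, 61985391 to 61990374, plus strand) was at 67.3, 84.2, 160.4, 98.9, 48.1 and 85.8 CPM in tumors 1 to 6, at 3.63, 2.87 and 2.48 CPM in tumors 7 to 9, and at 1.29, 1.63 and 1.25 CPM in the controls. Here and below, CPM are scaled by trimmed mean of M-values (TMM) factors over the 12 libraries unless stated otherwise. On this scaling tumor 3 was the highest and tumor 5 the lowest of the first 6, and all 9 tumors lay above the highest control. With library totals tumor 6 was the highest for Myc, tumor 3 the next and tumor 1 the lowest of the first 6. Tumors 7 and 8 then lay below control 2. Per kilobase of exon, Myc in the controls was between 0.724 and 0.948 of the receptor-gene median, and thus not above it. The related genes Mycn and Mycl had at most 3.75 and 3.25 CPM in any library.

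The first comparison asked whether the growth genes were higher in the leukemias than in healthy thymus. In tumors 1 to 6 the 35 genes together took 0.787% to 1.07% of the counts on nuclear protein-coding genes, against 0.0671% to 0.0783% in tumors 7 to 9 and 0.0976% to 0.138% in the controls. Per gene, all 35 lay above the highest control in each of tumors 1 to 6, where 21.3% of all tested genes did so. The ratio of the median of tumors 1 to 6 to the control median ran from 1.91 for Nip7 to 67.3 for Pa2g4. No gene of the 35 kept all 9 tumors apart from the controls, which 1.63% of all tested genes did upward and 3.1% downward, since at least 1 of tumors 7 to 9 lay at or below the highest control for each.

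**Figure D1:**
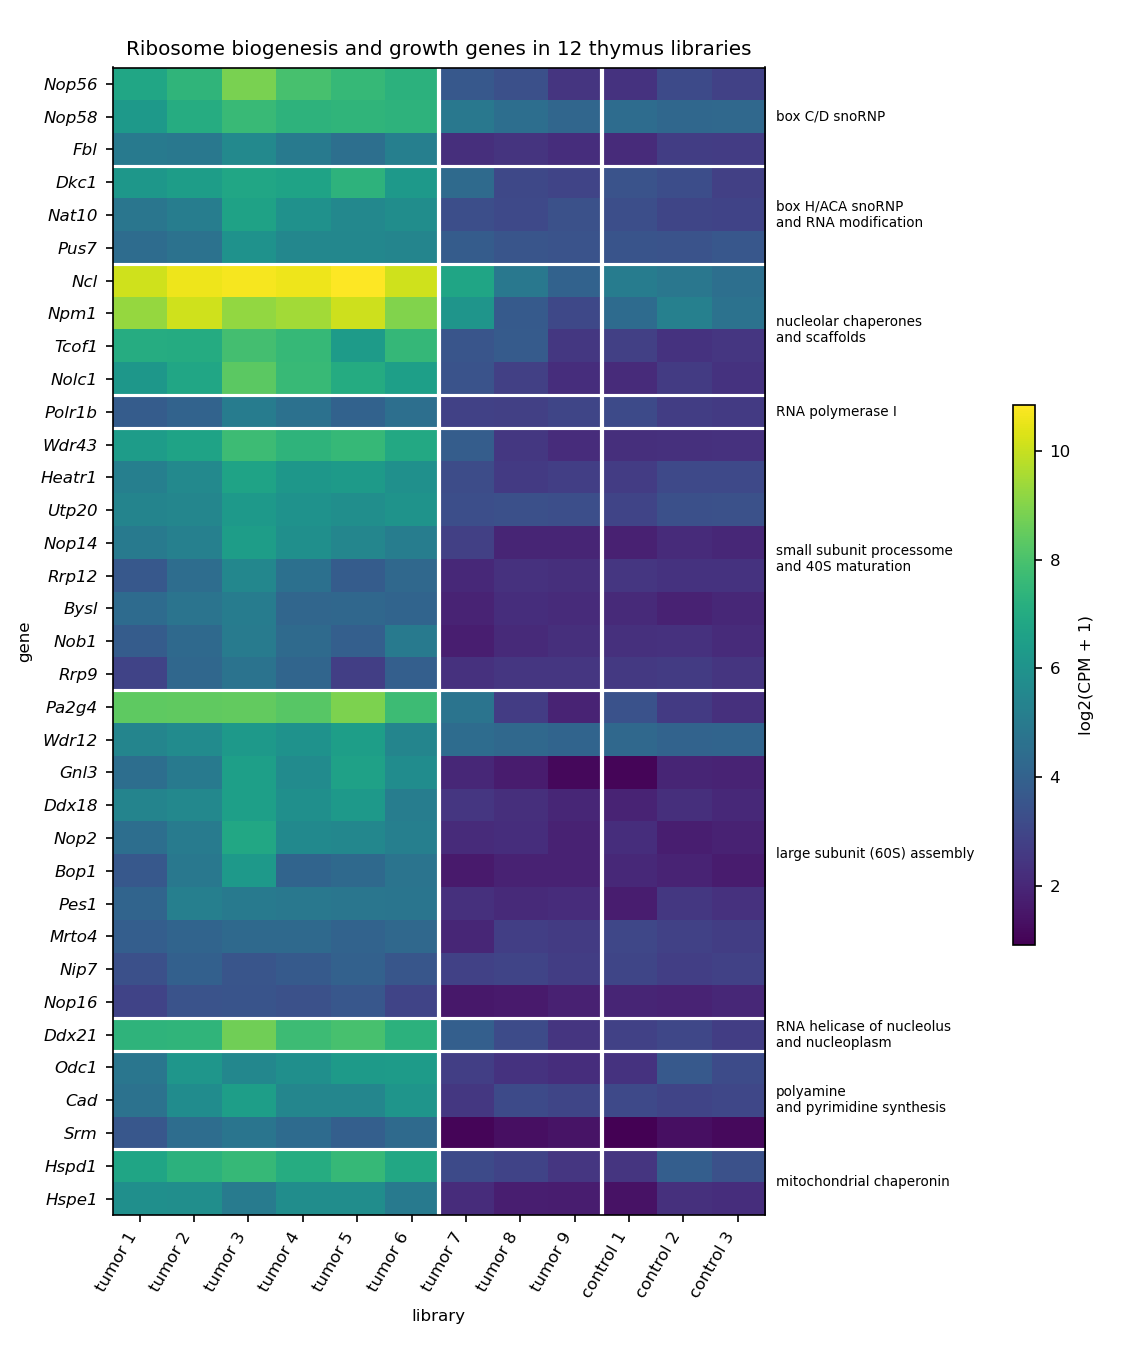
Level of each of the 35 genes (rows, grouped by role) in each library (columns) as log2(CPM + 1) with TMM factors over 12 libraries. Tumors 1 to 6 stand above tumors 7 to 9 and the controls in every row on this scaling. With library totals 26 of the 35 fold changes were above 0. Of these 15 passed the threshold, and 2 genes passed it downward, against 4.32% and 74.7% of all tested genes.

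In the edgeR quasi-likelihood fit of all 9 tumors against the controls, 0 of 35 genes passed a Benjamini-Hochberg adjusted p of 0.05 upward and 0 downward, where 0% of the 40484 tested genes did upward and 0.00494% downward. At an unadjusted p below 0.05, 31 of 35 were higher and 0 lower, against 16.9% and 1.1% of all tested genes, and DESeq2 called 24 of 35 higher and 0 lower, against 9.96% and 0.126%. On log2(TPM + 1), limma called 0 of 35 higher and 7 lower, against 0.309% and 79.3%. The log2 fold changes ran from 0.70 to 5.20 with a median of 2.74, beside a median of -0.45 over all tested genes, and their adjusted p from 0.128 to 0.538. That median was 0.33 with library totals, with 23 of 35 above 0, and -0.37 on log2(TPM + 1), with 14 above 0, beside -1.82 and -1.14 over all genes. With the receptor-gene level of each library as a covariate, the median of the 35 was 0.05 and that of all genes 0.35. That level was at most 0.134 in tumors 1 to 6 and at least 0.642 in all other libraries. The covariate thus largely follows the split of the tumors, and the fit cannot separate it from that split. It was used on a log2 scale, with the level of 0 in tumor 5 set to a small fixed value.

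With tumors 1 to 6 alone against the controls, 34 of the 35 genes were higher past the threshold in edgeR's quasi-likelihood test, where 19.6% of the 38534 tested genes were higher and 20.3% lower, and Nip7 had a log2 fold change of 0.68 with an adjusted p of 0.102. The median log2 fold change of the 35 was 2.95, and that of all tested genes was -1.29. Among genes with at least 5 CPM on average these medians were closer, at 1.23 and 0.15. There 25 of the 35 were called higher and 2 lower, where 32.5% of 10592 genes were called higher and 3413 genes lower. This comparison sets tumor libraries of low receptor-gene level against control libraries of high receptor-gene level, so the tumor state and the composition cannot be told apart in it. The direction also rests on the scaling, since 15 of 35 genes were higher and 2 lower with library totals (4.32% and 74.7% of all genes), and 7 were higher and 9 lower with limma on log2(TPM + 1) (1.52% and 85.1% of all genes). Fold changes were above 0 for 26 of 35 genes with library totals, 16 on log2(TPM + 1), 28 among genes with at least 5 CPM on average and 34 among protein-coding genes alone. The 2 lower with library totals were Mrto4 and Nip7, and the 9 lower on log2(TPM + 1) were Cad, Mrto4, Nip7, Nop16, Polr1b, Pus7, Rrp12, Rrp9 and Utp20. Ncl, Pa2g4, Nop56, Wdr43, Nolc1 and Ddx18 were called higher in all 18 settings of this comparison, leave-one-out fits included, and 0.976% of all tested genes were. In bulk RNA, more cells that make a transcript and more transcript per cell cannot be told apart.

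The box C/D snoRNP genes Nop56, Nop58 and Fbl encode core proteins of the particles that guide methylation of ribosomal RNA, with Fbl as the methyltransferase. All 3 were higher in tumors 1 to 6, with Fbl turning to -0.55 on log2(TPM + 1). Nop56 (ENSMUSG00000027405, chromosome 2, 130274430 to 130279313, plus strand) had a lowest, median and highest level of 111, 178 and 459 CPM in tumors 1 to 6. It had 11.6, 9.25 and 4.45 CPM in tumors 7 to 9 and 4.24, 7.81 and 6.18 CPM in controls 1 to 3. Tumor 3 was the highest library, and tumors 7 and 8 lay above every control while tumor 9 lay among them. Its log2 fold change in tumors 1 to 6 was 4.83 with a standard error (SE) of 0.55 and an adjusted p of 3.19e-05 by edgeR. Nop58 and Fbl had smaller log2 fold changes of 2.69 and 2.43.

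Among box H/ACA snoRNP and RNA modification genes, Dkc1 encodes dyskerin, the pseudouridine synthase of box H/ACA particles, Nat10 an RNA acetyltransferase and Pus7 a stand-alone pseudouridine synthase. Dkc1 (ENSMUSG00000031403, chromosome X, 75095854 to 75109777, plus strand) had a lowest, median and highest level of 71.4, 93.2 and 159 CPM in tumors 1 to 6. It had 19.4, 7.48 and 6.69 CPM in tumors 7 to 9 and 10.03, 8.5 and 5.98 CPM in the controls. Tumor 7 lay above every control, and tumors 8 and 9 lay within the controls' range. The log2 fold change of Dkc1 in tumors 1 to 6 was 3.36 with an SE of 0.44 and an adjusted p of 6.77e-05 by edgeR, and it missed the threshold with library totals (1.14) and on log2(TPM + 1) (0.71). Nat10 rose by 2.53, but had -0.95 on log2(TPM + 1), and Pus7 rose by 1.61, but had -0.61 with library totals and was called lower on log2(TPM + 1) at -1.35.

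The 4 nucleolar chaperones and scaffolds all rose in tumors 1 to 6, and the median of their log2 fold changes was 4.74. Ncl encodes nucleolin, Npm1 the nucleolar chaperone nucleophosmin, Nolc1 a shuttling snoRNP chaperone, and Tcof1 treacle, which serves ribosomal RNA transcription. Npm1 (ENSMUSG00000057113, chromosome 11, 33152287 to 33163206, minus strand) had a lowest, median and highest level of 491, 666 and 1126 CPM in tumors 1 to 6. It had 68, 12.2 and 7.40 CPM in tumors 7 to 9 and 20.2, 36.4 and 24.4 CPM in the controls. Tumor 7 was above every control and tumors 8 and 9 were below every control. On the log2 scale the rise of Npm1 in tumors 1 to 6 was 4.54 with an SE of 0.60 and an adjusted p of 7.46e-05 by edgeR. Ncl, Nolc1 and Tcof1 had log2 fold changes of 5.44, 4.78 and 4.69. Per kilobase of exon, Npm1 had the highest median level of the 35 genes in tumors 1 to 6, at 249.9 CPM per kilobase, followed by Ncl at 151 and Pa2g4 at 120.3.

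Polr1b encodes the second largest subunit of RNA polymerase I and is the single polymerase gene of the 35. Polr1b (ENSMUSG00000027395, chromosome 2, 129100995 to 129126594, plus strand) had a lowest, median and highest level of 12.8, 19.0 and 32.7 CPM in tumors 1 to 6. It had 6.23, 5.91 and 7.06 CPM in tumors 7 to 9 and 7.88, 5.56 and 5.05 CPM in the controls. The first 6 tumors lay above the controls, and tumors 7 to 9 lay within the controls' range. The log2 fold change of 1.42 in tumors 1 to 6 had an SE of 0.35 and an adjusted p of 0.00675 by edgeR, but the sign turned with library totals (-0.81) and on log2(TPM + 1) (-1.88). Without control 3 it was 1.30 with an adjusted p of 0.0509.

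The 8 genes of the small subunit processome and 40S maturation were all higher in tumors 1 to 6, with log2 fold changes from 1.2 to 4.90, but Rrp9, Rrp12 and Nob1 lay below 0 with library totals and all but Wdr43 below 0 on log2(TPM + 1). Wdr43, Heatr1, Utp20, Nop14 and Rrp9 belong to the processome that cuts the precursor RNA on the 40S side, Bysl and Rrp12 act in 40S maturation and export, and Nob1 makes the last cut of 18S ribosomal RNA. Wdr43 (ENSMUSG00000041057, chromosome 17, 71615895 to 71659031, plus strand) had a lowest, median and highest level of 84.2, 143 and 212 CPM in tumors 1 to 6. It had 13.3, 4.82 and 3.51 CPM in tumors 7 to 9 and 3.84, 3.96 and 4.08 CPM in the controls. The controls were close together, with tumors 7 and 8 above them and tumor 9 below. For Wdr43 the log2 fold change in tumors 1 to 6 was 4.90 with an SE of 0.48 and an adjusted p of 1.95e-05 by edgeR, the smallest of the 35 and shared with Pa2g4, Ddx21 and Tcof1.
Nop14 (ENSMUSG00000036693, chromosome 5, 34638536 to 34660148, minus strand) had a lowest, median and highest level of 30.8, 39.7 and 85.4 CPM in tumors 1 to 6. It had 6.00, 2.83 and 2.84 CPM in tumors 7 to 9 and 2.51, 3.38 and 3.03 CPM in the controls. Tumor 7 was the exception among tumors 7 to 9, above all controls. For Nop14 the log2 fold change was 3.66 with an SE of 0.41 and an adjusted p of 2.97e-05 by edgeR, and -0.34 on log2(TPM + 1).
Rrp9 (ENSMUSG00000041506, chromosome 9, 106475963 to 106485424, plus strand), the human counterpart of which binds U3 snoRNA, had a lowest, median and highest level of 5.85, 15.6 and 24.8 CPM in tumors 1 to 6. It had 3.98, 4.65 and 4.68 CPM in tumors 7 to 9 and 4.93, 5.30 and 4.44 CPM in the controls. Tumors 1 and 5 lay just above the controls and the other 4 clearly above. The log2 fold change of Rrp9, 1.2, had an SE of 0.43 and an adjusted p of 0.0390 by edgeR. That call was lost without control 1, 2 or 3 or tumor 2, 3, 4 or 6, with adjusted p of 0.0543 to 0.133, and also with RLE factors (0.0782), with DESeq2 (0.0663) and among protein-coding genes alone (0.401). With library totals the value was -1.11, and on log2(TPM + 1) Rrp9 was called lower at -2.08.
Rrp12 (ENSMUSG00000035049, chromosome 19, 41862851 to 41896173, minus strand) had a lowest, median and highest level of 11.5, 19.7 and 45.2 CPM in tumors 1 to 6. It had 3.17, 4.01 and 3.81 CPM in tumors 7 to 9 and 4.57, 4.25 and 4.16 CPM in the controls. Tumors 1 to 6 lay above the controls, and tumors 7 to 9 all lay below them. For Rrp12 the log2 fold change in tumors 1 to 6 was 1.99 with an SE of 0.41 and an adjusted p of 0.00194 by edgeR, but -0.30 with library totals and -0.67 on log2(TPM + 1), where it was called lower.

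Of the 10 genes of 60S assembly, 9 were higher in tumors 1 to 6, all but Nip7, while Mrto4, Nip7, Nop16 and Wdr12 lay below 0 with library totals and these and Bop1 and Pes1 below 0 on log2(TPM + 1). Bop1, Pes1 and Wdr12 form the PeBoW complex, Nop2 methylates large subunit ribosomal RNA, Mrto4, Nip7, Nop16 and Gnl3 are nucleolar assembly factors, Ddx18 is a helicase, and Pa2g4 (also called Ebp1) is a growth regulator bound to 60S particles. Pa2g4 (ENSMUSG00000025364, chromosome 10, 128557766 to 128565987, minus strand) had a lowest, median and highest level of 208, 337 and 471 CPM in tumors 1 to 6. It had 25.5, 5.41 and 2.78 CPM in tumors 7 to 9 and 9.56, 5.01 and 3.88 CPM in the controls. Tumor 7 was above every control, tumor 8 within their range and tumor 9 below. The log2 fold change of Pa2g4 in tumors 1 to 6, at 5.49 with an SE of 0.54 and an adjusted p of 1.95e-05 by edgeR, was the largest of the 35.
Ddx18 (ENSMUSG00000001674, chromosome 1, 121553835 to 121567989, minus strand) had a lowest, median and highest level of 34.4, 51.2 and 92.0 CPM in tumors 1 to 6. It had 4.56, 3.8 and 2.98 CPM in tumors 7 to 9 and 2.75, 3.81 and 3.23 CPM in the controls. Only tumor 7 of the last 3 tumors lay above the controls. The rise of Ddx18 on the log2 scale was 3.82 with an SE of 0.43 and an adjusted p of 3.12e-05 by edgeR.
Bop1 (ENSMUSG00000022557, chromosome 15, 76452989 to 76477277, minus strand) had a lowest, median and highest level of 11.6, 22.4 and 78.1 CPM in tumors 1 to 6. It had 2.13, 2.70 and 2.64 CPM in tumors 7 to 9 and 3.14, 2.80 and 2.22 CPM in the controls. Tumor 3 stood far above the other tumors, and none of tumors 7 to 9 lay above control 1. The rise of Bop1 on the log2 scale was 3.11 with an SE of 0.56 and an adjusted p of 7.67e-04 by edgeR.
Mrto4 and Nop16 had the smallest log2 fold changes past the threshold in this role, 1.13 and 1.36. Mrto4 lost its call without control 2 or 3 (adjusted p of 0.0553 and 0.0714) and Nop16 without control 1 or 2 (0.0524 and 0.0561), and neither was called among protein-coding genes alone. Mrto4 was called lower with library totals (-1.11), among genes with at least 5 CPM on average (-0.56) and on log2(TPM + 1) (-2.24), and Nop16 was called lower on log2(TPM + 1) (-1.01).

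Ddx21, a helicase that works on ribosomal RNA transcription and processing and also in the nucleoplasm, is placed in a role of its own. Ddx21 (ENSMUSG00000020075, chromosome 10, 62580251 to 62602281, minus strand) had a lowest, median and highest level of 155, 188 and 413 CPM in tumors 1 to 6. It had 14.1, 8.15 and 4.48 CPM in tumors 7 to 9 and 6.09, 7.08 and 5.57 CPM in the controls. Tumors 7 and 8 lay above the controls and tumor 9 below. For Ddx21 the log2 fold change in tumors 1 to 6 was 4.85 with an SE of 0.48 and an adjusted p of 1.95e-05 by edgeR.

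The 3 enzymes of the list supply growing cells with small molecules. Odc1 starts polyamine synthesis, Srm makes spermidine, and Cad starts pyrimidine synthesis. Odc1 (ENSMUSG00000011179, chromosome 12, 17544794 to 17551505, plus strand) had a lowest, median and highest level of 26.9, 63.0 and 81.1 CPM in tumors 1 to 6. It had 5.77, 4.14 and 3.65 CPM in tumors 7 to 9 and 4.14, 12 and 8.00 CPM in the controls. The controls themselves were spread, with control 1 at the level of tumor 8. For Odc1 the log2 fold change in tumors 1 to 6 was 2.62 with an SE of 0.52 and an adjusted p of 0.00164 by edgeR, but -0.13 on log2(TPM + 1). Srm and Cad had log2 fold changes of 3.62 and 2.60, and Cad was called lower on log2(TPM + 1) at -1.47.

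Hspd1 and Hspe1 encode the large and small subunits of the mitochondrial chaperonin, and their genes overlap head to head by 112 bases on chromosome 1. Hspd1 (ENSMUSG00000025980, 55077835 to 55088243, minus strand) had a lowest, median and highest level of 105, 145 and 188 CPM in tumors 1 to 6. It had 7.79, 6.63 and 4.65 CPM in tumors 7 to 9 and 4.53, 13.8 and 9.41 CPM in the controls. All of tumors 7 to 9 lay within the controls' range. For Hspd1 the log2 fold change in tumors 1 to 6 was 3.68 with an SE of 0.48 and an adjusted p of 7.17e-05 by edgeR.
Hspe1 (ENSMUSG00000073676, 55088132 to 55091307, plus strand) had a lowest, median and highest level of 31.0, 54.2 and 57.8 CPM in tumors 1 to 6. It had 3.52, 2.37 and 2.31 CPM in tumors 7 to 9 and 1.62, 3.96 and 3.68 CPM in the controls. These groups likewise overlapped only between the controls and tumors 7 to 9. Its log2 fold change of 3.62 had an SE of 0.45 and an adjusted p of 5.07e-05 by edgeR.

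Most other genes of the pathway were also higher in tumors 1 to 6 in edgeR's fit, where 19.6% of all tested genes were higher and 20.3% lower. Of 98 further ribosome biogenesis genes listed, 94 were found. In tumors 1 to 6, 90 of these were higher and 0 lower by edgeR, with a median log2 fold change of 2.78. The 4 called genes with the highest mean CPM were Taf1d, a subunit of the polymerase I selectivity factor, Mdn1, an AAA ATPase of 60S maturation, Nvl, another such ATPase, and Ubtf, an activator of ribosomal DNA transcription. Their log2 fold changes were 4.92, 3.51, 1.5 and 3.89. The 4 without a call were Taf1c, Shq1, Nle1 and Tbl3, with log2 fold changes of 1.51, -0.59, 0.42 and 0.70. Of 13 further polyamine and nucleotide genes, 12 were higher, all but Dhodh at -0.25. The 80 ribosomal protein genes, the products that these factors assemble, had 76 higher and a median log2 fold change of 3.8, above that of the 35. With library totals the counts called higher and lower were 22 and 4 of the 94, 5 and 1 of the 13, and 49 and 3 of the 80. On log2(TPM + 1) they were 5 and 34, 0 and 2, and 18 and 4. Of all tested genes, 4.32% were called higher and 74.7% lower with library totals, and 1.52% and 85.1% on log2(TPM + 1). Over all 9 tumors edgeR called 0 of each list, with 85, 12 and 74 higher at an unadjusted p below 0.05 against 16.9% of all genes, and DESeq2 called 58, 10 and 66 higher against 9.96%. Each of these 3 lists had a median in tumors 1 to 6 above the -1.29 of all tested genes, and the differences between the lists were not tested.

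In tumors 7 to 9 the growth genes were near the control level on the TMM scaling. By edgeR, 0 of 35 were called in either direction, where 0.0247% of the 36420 tested genes were called higher and the same share lower, and DESeq2 called 0 of 35 as well. The median log2 fold change of the 35 was 0.06, with 20 above 0, beside -0.01 for all genes. With library totals 1 of 35 lay above 0, and the medians were -0.65 for the 35 and -0.70 for all genes. On log2(TPM + 1) 0 of 35 lay above 0, with medians of -0.89 and -0.68. At an unadjusted p below 0.05 there was 1 higher gene and 1 lower gene, against 5.18% and 3.86% of all tested genes. Tcof1 had 10.7, 12.5 and 4.72 CPM in tumors 7 to 9, against 5.92, 4.21 and 4.56 CPM in the controls. Tumors 7 and 8 were thus high and tumor 9 was within the controls. The log2 fold change of Tcof1 was 0.91 with an SE of 0.33 and an adjusted p of 0.463 by edgeR, and -0.47 on log2(TPM + 1). Odc1, with the values given above, had a log2 fold change of -0.86 with an SE of 0.37 and an adjusted p of 0.543 by edgeR. With library totals it was -1.70 and passed the threshold downward, the only one of the 35 to do so, and 0 of the 35 passed upward, against 0.813% and 0.181% of all genes. Nop16 and Rrp12 lay lower in every one of tumors 7 to 9 than in any control, as did 7.17% of all tested genes, and 0 of the 35 lay higher in this way, as did 7.44%. This comparison shares its 3 control libraries with the ones above.

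The ribosomal protein genes had a median log2 fold change of -0.65 in tumors 7 to 9. At an unadjusted p below 0.05 by edgeR, 30 of 80 were lower, against 3.86% of all tested genes, and 0 were called after adjustment. DESeq2 called 3 lower, against 76 of all 36420 tested genes, and 31 were called lower with library totals, against 0.813%. The 94 further biogenesis genes had a median of 0.02, with 2 higher and 2 lower at that unadjusted p, against 5.18% and 3.86% of all tested genes. Of these 94, 0 were called by edgeR and 1 was higher by DESeq2, as were 295 of all 36420 tested genes. In these libraries the 35 genes were not far above the level of receptor genes per kilobase of exon. The divisor holds the exons of all annotated transcript models. For 23 of the 35 these include intron-retaining models, which can lengthen it and lower the multiple, and their part was not tested. On this measure the median of the 35 was 2.44, 2.40 and 1.59 times the receptor-gene median in tumors 7, 8 and 9, against 1.83, 2.10 and 2.02 times in controls 1 to 3. In all 3 controls 24 of the 35 were below 3 times that level, and in all of tumors 7 to 9 20 were. Npm1 stood highest in the controls, at 12.3, 21.5 and 14.4 times. In tumors 7 to 9 it was at 40.1, 8.65 and 4.06 times. How much of each control value comes from messenger RNA of the gene was not tested.

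**Figure D2:**
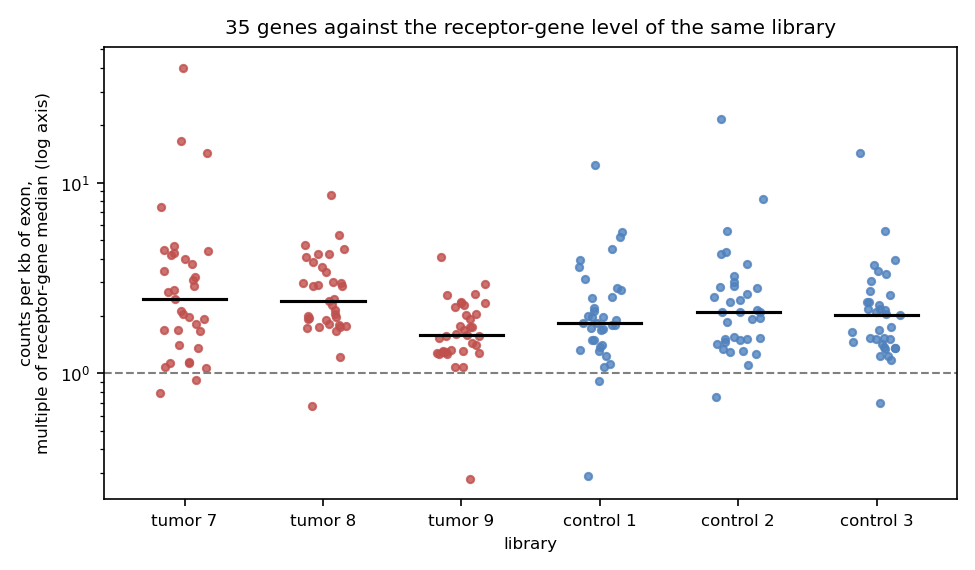
Counts per kilobase of exon of each of the 35 genes (points) as a multiple of the receptor-gene median of the same library, on a log axis, in tumors 7 to 9 and controls 1 to 3. Black lines are medians, between 1.59 and 2.44 in the tumors and between 1.83 and 2.10 in the controls, and the dashed line at 1 is the receptor-gene level.

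The next question was whether the growth genes followed the level of Myc among tumors 1 to 6. For this, CPM were scaled by TMM factors of these 6 libraries, which put Myc at 28.3, 35.2, 64.6, 41.7, 27.5 and 45.9 CPM in tumors 1 to 6. In edgeR's quasi-likelihood fit with log2(CPM + 1) of Myc as a covariate, 0 of 35 genes and 0% of the 22925 other tested genes passed an adjusted p of 0.05, and DESeq2 called 0 of 35. The slope, in log2 units of the gene per log2 unit of Myc, was above 0 for 25 of 35 genes and below 0 for the rest, against 42.7% and 57.3% of all tested genes. The median slope was 0.36 for the 35 and -0.15 for all genes. With library totals the medians were 0.95 and 0.49, and with the mitochondrial percentage as a covariate they were 0.25 and 0.10. With the TMM factors of 12 libraries they were 0.37 and 0.20, and among genes with at least 5 CPM on average 0.18 and 0.01. At an unadjusted p below 0.05, 3 of 35 genes rose with Myc and 0 fell, against 2.5% and 1.3% of all genes.

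**Figure D3:**
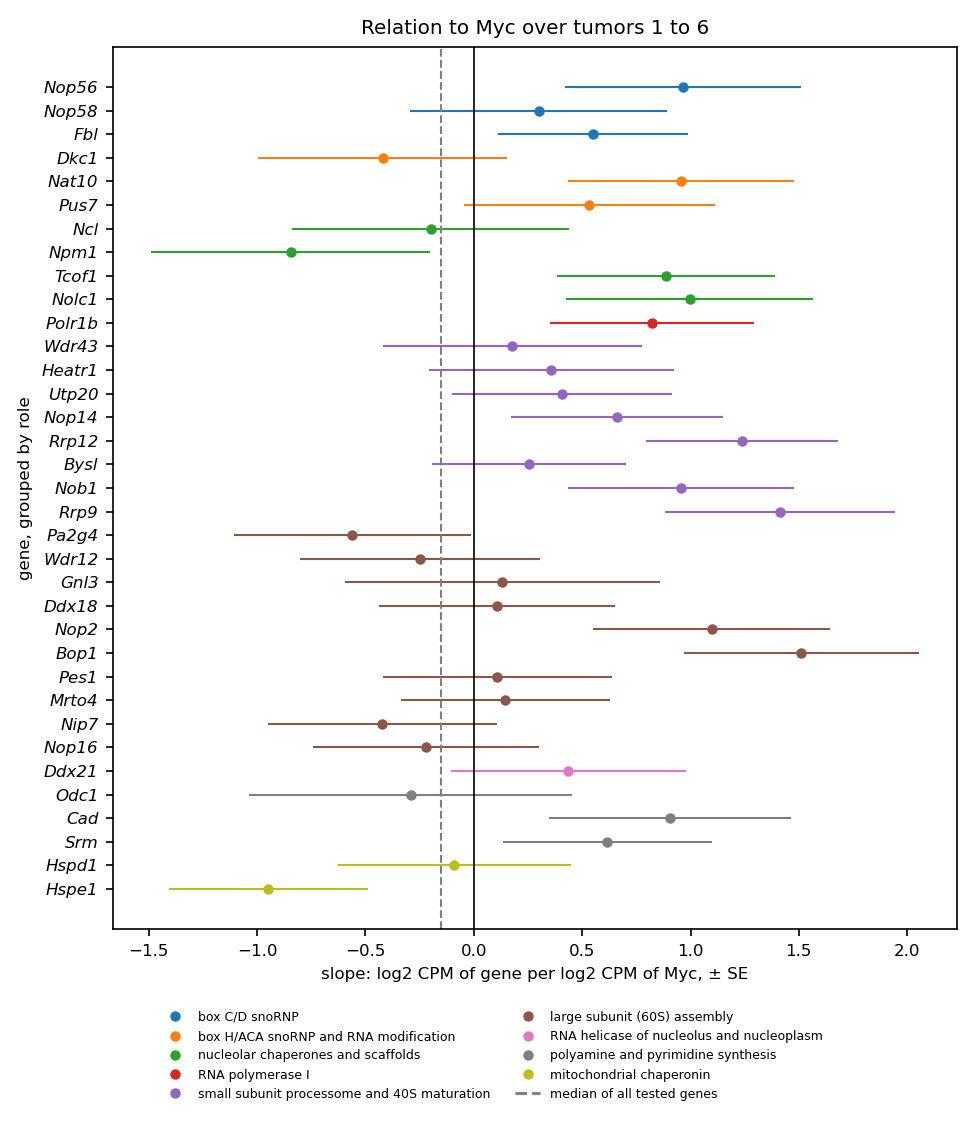
Slope of each gene on Myc over tumors 1 to 6 (points, with SE bars from edgeR), in log2 CPM of the gene per log2 CPM of Myc, colored by role. Slopes run from -0.95 for Hspe1 to 1.51 for Bop1, the dashed line marks the median of all tested genes at -0.15, and with library totals the slope of Hspe1 is -0.039 and those of Npm1 and Pa2g4 lie above 0.

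In sign, the slopes were unevenly spread over the roles. All 8 genes of the small subunit processome and 40S maturation and all 3 box C/D genes had slopes above 0, and Polr1b had 0.82. Of the 10 genes of 60S assembly 6 had slopes above 0, and both chaperonin genes had slopes below 0. With library totals all 10 genes of 60S assembly and 1 chaperonin gene lay above 0. Without tumor 3, 5 of the 8 small subunit genes, 2 of the 3 box C/D genes and 3 of the 10 genes of 60S assembly did. Without tumor 1 these counts were 6, 2 and 2. These differences between roles were not tested.

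The 3 largest slopes belonged to Bop1, Rrp9 and Rrp12. Bop1 had 4.86, 12.1, 31.5, 6.96, 10.7 and 13.9 CPM in tumors 1 to 6 on the scale of these 6 libraries. Tumor 3, highest for Myc, was highest for Bop1, and tumor 4, in the upper part of the order for Myc, was next to lowest. The slope was 1.51 with an SE of 0.54, and it was 0.46 without tumor 3 and 2.09 without tumor 5. Pearson's r of log2(CPM + 1) was 0.78 (two-sided exact permutation p = 0.0611, 0.918 after adjustment over 22925 genes) and Spearman's rho was 0.71 (exact permutation p = 0.136, adjusted 1).
Rrp9 had 2.79, 7.40, 9.98, 7.13, 3.35 and 7.67 CPM in tumors 1 to 6. Tumors 1 and 5, the lowest for Myc, were the lowest for Rrp9, apart from the other 4. The slope was 1.41 with an SE of 0.53, and 0.77 on log2(TPM + 1), r was 0.90 (exact permutation p = 0.0139, adjusted 0.758) and rho 0.89 (exact permutation p = 0.0333, adjusted 0.831).
Rrp12 had 4.82, 8.92, 18.2, 9.60, 7.38 and 9.71 CPM in tumors 1 to 6. Apart from the exchange of tumors 1 and 5, it ranked the tumors as Myc did. The slope was 1.24 with an SE of 0.44, and 0.54 on log2(TPM + 1), r was 0.92 (exact permutation p = 0.00417, adjusted 0.667) and rho 0.94 (exact permutation p = 0.0167, adjusted 0.788).

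By the exact permutation test at an unadjusted p below 0.05, r was positive for Rrp12, Rrp9 and Tcof1, against 3.81% of all genes, and negative for Hspe1, against 1.76%. Spearman's rho was positive for these 3 and Srm, against 2.63% of all genes, and negative for Hspe1, against 1.41%, and no gene of all 22925 passed after adjustment. An exact permutation p from 720 pairings cannot fall below 0.00139. A single gene could thus not pass over 22925 genes unless many others were as extreme.

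The 3 smallest slopes belonged to Hspe1, Npm1 and Pa2g4. Hspe1 had 24.3, 23.1, 12.8, 22.7, 31.3 and 16.6 CPM in tumors 1 to 6, in exactly the reverse order of Myc. Its slope was -0.95 with an SE of 0.46, but -0.039 with library totals, -0.13 on log2(TPM + 1) and -0.46 with the TMM factors of 12 libraries. On the scale of these 6 libraries r was -0.94 and rho -1. The two-sided exact permutation p was 0.00139 for r, the smallest that the 720 pairings of 6 tumors can give, and 0.00278 for rho, and both were 0.631 after adjustment over 22925 genes.
Npm1 had 259, 471, 242, 302, 612 and 263 CPM in tumors 1 to 6. Tumors 5 and 2 were high and tumor 3 was the lowest. The slope was -0.84 with an SE of 0.64, 0.081 with library totals, -0.04 on log2(TPM + 1), -0.41 with the TMM factors of 12 libraries and -0.43 without tumor 5. Pearson's r was -0.61 (exact permutation p = 0.214, adjusted 1.00).
Pa2g4 had 140.5, 142, 143, 128, 269 and 111 CPM in tumors 1 to 6. Tumor 5 was high and the others lay close together. The slope was -0.56 with an SE of 0.55, 0.21 with library totals, 0.020 on log2(TPM + 1), -0.22 with the TMM factors of 12 libraries, -0.05 without tumor 5 and -1.22 without tumor 3. Pearson's r was -0.53 (exact permutation p = 0.275, adjusted 1.00).

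**Figure D4:**
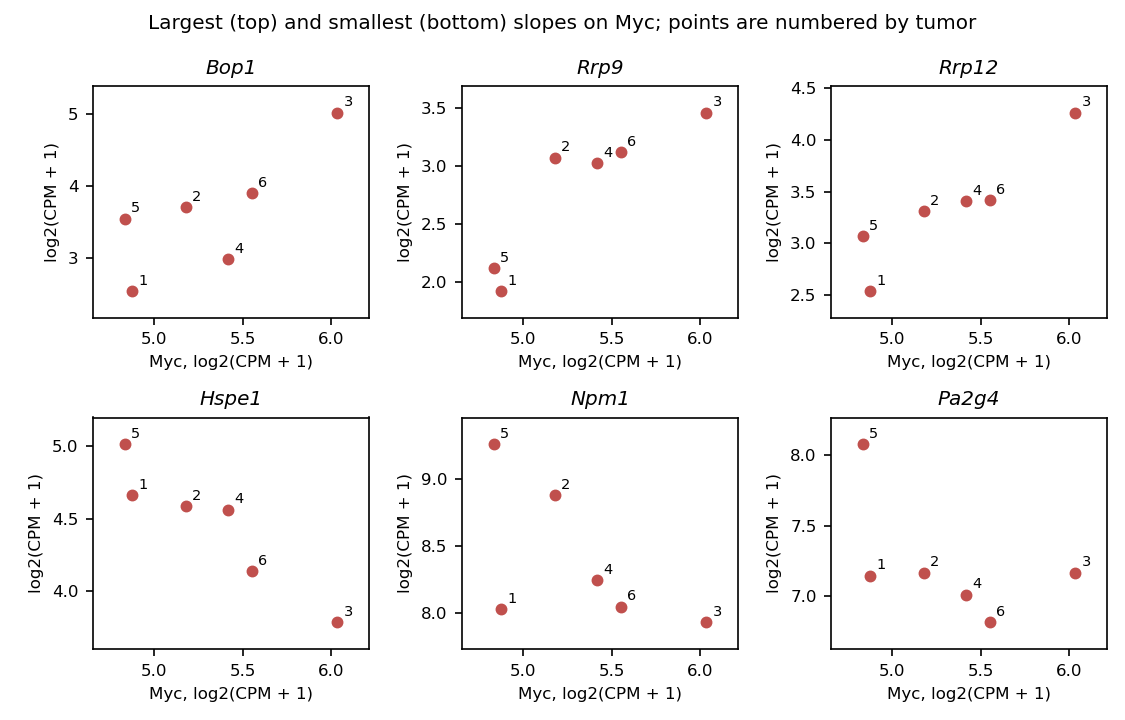
Level of the 3 genes with the largest slopes on Myc (top) and the 3 with the smallest (bottom) against Myc, both as log2(CPM + 1) with TMM factors of tumors 1 to 6, with points numbered by tumor. On this scale Hspe1 falls in every step as Myc rises and Pa2g4 differs mainly by tumor 5, while with library totals the slope of Hspe1 is -0.039 and those of Npm1 and Pa2g4 turn to 0.081 and 0.21.

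The relation moved in opposite ways when tumors 3 and 5, the farthest from the median of Myc, were left out. Without tumor 3 the median slope of the 35 was -0.03 beside 0.17 for all genes, and without tumor 5 it was 0.90 beside -0.04. Without tumor 1 it was 0.13. With both tumors 3 and 5 left out, Pearson's r over the remaining 4 tumors had a median of 0.88 for the 35 genes and 0.08 for all genes, with 31 of 35 above 0, and 7 genes changed sign. Those 7 were Ncl, Dkc1, Odc1, Wdr12, Nip7 and Nop16, which became positive, and Bysl, which became negative. Without both, r was 0.91 for Rrp12, 0.86 for Rrp9, 0.68 for Bop1 and -0.78 for Hspe1. Over these 4 tumors Myc itself had an r of -0.95 with the receptor-gene level and -0.71 with the mitochondrial percentage. It had -0.49 with the log2 library total, 0.40 with the ribosomal protein share and 0.60 with the nuclear protein-coding share. The part of these in the values of r was not tested, and 4 libraries are few for a correlation. Tumor 5 had the largest share of counts on ribosomal protein genes, 1.27%, and the largest library, and the part of this in the relation was not tested. On the scale of these 6 libraries Myc was highest in tumor 3, where ribosomal protein genes took 0.364% of the counts, and the lowest share, 0.330%, was in tumor 4. These shares are of all counts, mitochondrial ones included. Nuclear protein-coding genes held 22.9% of the counts in tumor 3, 14.0% in tumor 4 and 38.4% in tumor 5. The order of the shares thus depends on the total used.

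The further biogenesis genes had 61 of 94 slopes above 0 and a median of 0.23, which was 0.84 with library totals, -0.21 without tumor 3 and -0.06 without tumor 1. The largest slope on Myc among the 4 highly expressed ones was 1.14, for Mdn1. Ribosomal protein genes had 8 of 78 tested slopes above 0 and a median of -0.81, but 58 above 0 and a median of 0.36 with library totals, where the median of all genes was 0.49, and 46 and 0.19 on log2(TPM + 1). Of the ribosomal protein genes 21 fell at an unadjusted p below 0.05 by edgeR, against 1.3% of all tested genes. After adjustment 0 fell by edgeR and 3 by DESeq2, which called 15 of all 22925 genes falling. The difference between the lists was not tested.

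The spread of the 35 genes among tumors 1 to 6 was close to that of other genes. The coefficient of variation had a median of 39.3% for the 35, against 42.8% for the 5142 tested genes with at least 10 CPM on average. Bop1 varied most, with 71.1% and a highest value 6.47 times the lowest, and Mrto4 least, with 18.9% and 1.72 times. Tumor 1 was the lowest of the 6 for 29 of the 35 genes, against 19.3% of all tested genes. Tumor 5 was the highest for 17 and tumor 3 for 12, against 25% and 13% of all genes. On the scale of the 12 libraries tumor 1 was the lowest for 26 (16.7% of all genes), and tumor 3 was the highest for 23 and tumor 5 for 7 (22.8% and 16.1%). With library totals tumor 1 was the lowest for 25 (13.9%), and tumor 6 was the highest for 15, tumor 5 for 14 and tumor 3 for 6 (39.8%, 23.8% and 5.98%). With totals over nuclear protein-coding genes tumor 1 was the lowest for 18 (12.1%) and tumor 3 the highest for 16 (12.9%). Which tumor was highest thus depended on the scaling. Tumor 1 also had the largest mitochondrial percentage, 69.3%, and the part of this was not tested.

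Estimated counts were deposited per transcript, so the form of each gene could be described. The annotation holds intron-retaining transcript models for 23 of the 35 genes. The percentage of a gene's counts assigned to such models was lower in each of tumors 1 to 6 than in any control for 12 of the 23, against 47.2% of 6118 genes, so this share is near that of other genes. It was higher for 2 of the 23, Ncl and Odc1, against 2.7% of genes. For Ncl it was between 78.5% and 88.2% in tumors 1 to 6, between 19.9% and 79% in tumors 7 to 9 and between 37.5% and 54.5% in the controls. Tumor 7 thus lay with tumors 1 to 6, and the other 2 did not. The intron-retaining model with the most counts was Ncl-202, with between 9051 and 38050.4 counts in tumors 1 to 6, between 64.2 and 1437 in tumors 7 to 9 and between 160.1 and 502 in the controls. For Odc1 the percentage was between 16.3% and 29.97% in tumors 1 to 6, between 13.9% and 22% in tumors 7 to 9 and between 10.7% and 15.2% in the controls.
Rrp9 showed the reverse, with between 15.6% and 27.4% in tumors 1 to 6, between 81.3% and 85.4% in tumors 7 to 9 and between 88.5% and 93.1% in the controls. Most control counts of Rrp9 thus sat on models that keep an intron, and its gene-level fold change compares unlike mixtures of models. Fbl and Mrto4 were alike in this, at 4.75% to 12.6% and 10.3% to 21.0% in tumors 1 to 6 and at 44.2% to 78.6% and 84.5% to 86.3% in the controls. Nop56 did not separate, with between 41.7% and 66.5% in tumors 1 to 6, between 70.1% and 87.6% in tumors 7 to 9 and between 54.6% and 61.8% in the controls. Rrp9, Fbl, Mrto4 and Nop56 were chosen for naming here after their values were seen. kallisto divides reads among overlapping models, and reads from unspliced RNA can be assigned to such models, so these values are estimates.

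**Figure D5:**
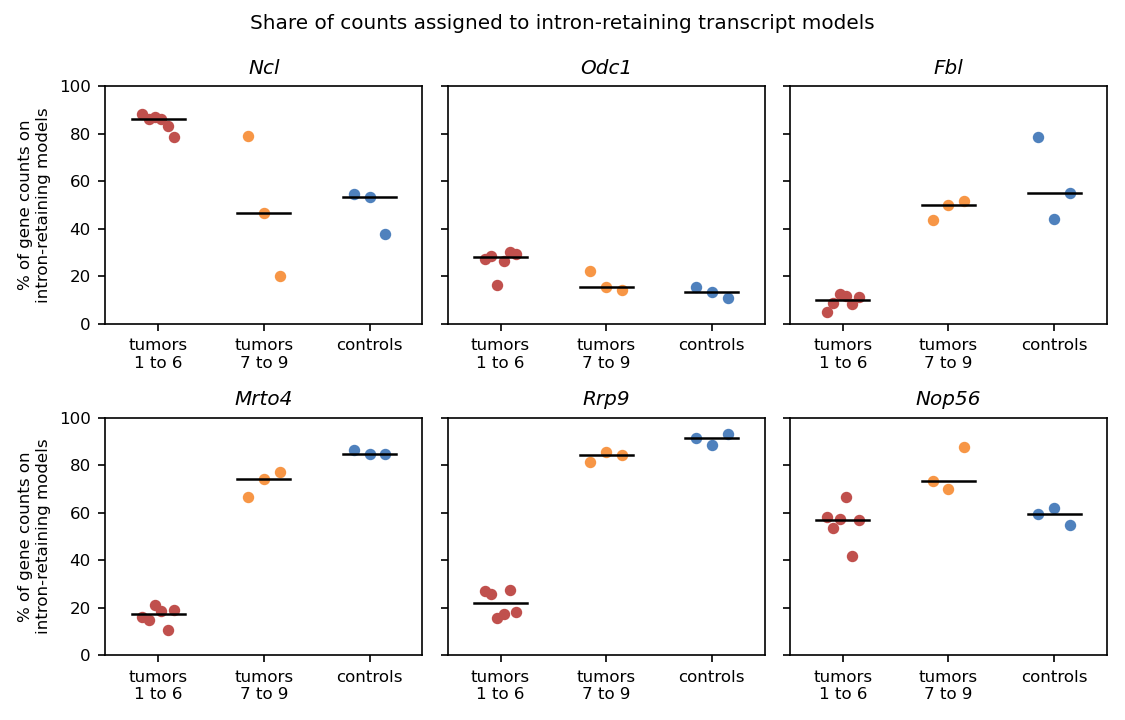
Percentage of a gene's estimated counts assigned to intron-retaining transcript models in tumors 1 to 6, tumors 7 to 9 and controls (points are libraries, lines are medians) for 6 genes. Ncl and Odc1 lie higher in tumors 1 to 6 than in the controls, Fbl, Mrto4 and Rrp9 lie lower, and Nop56 overlaps.

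Some of the genes also have a feature of position in common. Small nucleolar RNAs are cut from introns of host genes, and 7 of the 35 genes (20%) contain annotated snoRNA genes on their own strand, against 1.18% of 22028 protein-coding genes. They hold 20 snoRNA genes in all, 5 in Nop56, 4 in Nop58, 3 each in Ncl, Gnl3 and Wdr43, and 1 each in Odc1 and Dkc1. Exons of 13 of the 35 overlap exons of another gene on the other strand, by 5 bases for Nop56 and Idh3b and by up to 361 for Bysl and Ccnd3. Strand use in counting is not given in the sources used here, so reads of such overlaps cannot be told apart. Processed copies named after Hspd1, Hspe1 and Mrto4 had at most 61 counts in a library, and reads shared between a gene and its near-identical copies are divided by estimation.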

How the data were processed

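Per the file headers, the authors deposited for each library kallisto estimated counts and TPM for the same 128622 transcripts, beside length and effective length. Kallisto, FastQC and the build mm10 come from the submitters' processing notes. Versions, annotation release and strand setting were not given in the sources used here. Estimated counts were summed by gene symbol and rounded. Genes were annotated with GENCODE M21 (GRCm38, also called mm10). The deposited TPM, on a log2(TPM + 1) scale, served as an alternative.

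Genes were kept by filterByExpr, scaled by TMM factors over kept genes and tested with edgeR 4.0.16 (R 4.3.3) by the quasi-likelihood F test, calling genes at p below 0.05 after Benjamini-Hochberg adjustment. DESeq2 1.42.0, limma 3.58.1, RLE factors, library totals, protein-coding genes only, other filters, covariates and leave-one-out fits were alternatives. The fits were tested on simulated data in which all libraries shared the same composition. That simulation cannot show how the fits behave with libraries as unlike in composition as these. Correlations used all 720 pairings of 6 tumors.

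Values in every library are given for Myc, for the top genes per kilobase of each role and for the 3 largest and smallest slopes on Myc. The 35 genes, the pathway lists and the split of the tumors were chosen with earlier results of these data known. No 2 libraries held identical counts.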

Additional observations from a re-analysis of the deposited data

Results flagged for a closer look

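Among tumors 1 to 6, 4 of the 36 genes looked at (the 35 and Myc) had 1 tumor far from the others on the log2(CPM + 1) scale of these libraries. The gap to the nearest tumor, as a part of the whole range, was 0.677 for Srm and 0.675 for Pes1, which were both lowest in tumor 1. It was 0.721 for Pa2g4 and 0.647 for Dkc1, which were both highest in tumor 5. The limit for 6 samples is 0.625, and chance passes it in about 1 in 20 groups. Over all 9 tumors, 0 of the 36 genes passed the limit of 0.493.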

How the results depend on the processing

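The count of the 35 genes called higher in all 9 tumors was 0 in edgeR's fit, 24 with DESeq2 and 34 with a replicate block, and it was 0 under the other alternatives and in every leave-one-out fit (0 to 0). The labels do not say that replicate numbers pair the samples. Same-numbered tumors and controls had correlations of deviations of 0.0187, 0.122 and -0.0193, and differently numbered ones had between -0.110 and 0.0544. So few values, from libraries of unlike composition, cannot show whether a pairing exists. The block leaves in effect tumors 1 to 3 against controls 1 to 3. The block also gave 8367 higher and 2309 lower calls over all genes, DESeq2 4031 and 51, and limma on log2(TPM + 1) 125 and 32091, against 0 and 2 in edgeR's fit. For tumors 1 to 6 against the controls the count was 34, and it was 15 with library totals, 7 with limma on log2(TPM + 1), 34 with the replicate block and 31 to 34 with 1 library left out. It was 25 among genes with at least 5 CPM on average and 28 among protein-coding genes alone, against 32.5% and 26.2% of the genes tested there. The counts of the 35 called higher in tumors 7 to 9 or rising with Myc were 0 in all fits, leave-one-out fits included (0 to 0), and 1 gene, Odc1, was called lower in tumors 7 to 9 with library totals, while DESeq2 called 295 higher and 76 lower genes in tumors 7 to 9 and 22 rising and 15 falling with Myc over all genes, against 9 and 9, and 0 and 0, by edgeR. Among the genes with values in every library as the top of their role, directions reversed in tumors 1 to 6 were those of Polr1b with library totals (-0.81), with at least 5 CPM on average (-0.27) and on log2(TPM + 1) (-1.88), and Nop14 (-0.34) and Odc1 (-0.13) on log2(TPM + 1). Over all 35, 26 directions were upward with library totals and 16 on log2(TPM + 1), against 35 with TMM. Tcof1 in tumors 7 to 9 turned to -0.47 on log2(TPM + 1). Slopes on Myc turned for Npm1 (0.081) and Pa2g4 (0.21) with library totals and for Pa2g4 on log2(TPM + 1) (0.020). The median log2 fold change of all genes in tumors 1 to 6 was -1.29 with TMM, -1.58 with RLE factors, -3.69 with library totals and -1.40 on log2(TPM + 1), and over all 9 tumors it was -0.45, -0.72, -1.82 and -1.14. The control counts of Myc (31 to 45) and Srm (27 to 41) limit the precision of their control levels.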
